A study of Homo sapiens with 4 samples.

Results

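The genes of the cytosolic ribosomal proteins were read on 4 HG-U133 Plus 2.0 arrays, 1 for each of A375 with an siRNA for ZIC5, A375 with a negative control siRNA, SK-MEL-28 with an siRNA for ZIC5 and SK-MEL-28 with a negative control siRNA. A375 and SK-MEL-28 are established human melanoma lines that carry an activating BRAF mutation, ZIC5 is a zinc-finger transcription factor, and RNA was collected 48 h after transfection. Members were the genes with a probe set naming 1 gene whose symbol is RPL or RPS and a number, with or without a final A, L or X, or RPLP0, RPLP1, RPLP2 or RPSA. This gave 56 of 19775 genes on 117 of 54613 probe sets, 35 genes of the large subunit and 21 of the small. Of the 81 symbols of this form in the RefSeq table, 25 had no probe set of their own and are not analysed here. Probe sets that name a member with another gene numbered 64 and were not used for genes.

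The ribosome joins a small subunit, which reads the messenger RNA, to a large subunit, which forms the peptide bond, and the ribosomal proteins fold and stabilise the RNA of both. Their transcripts are among the most abundant in dividing cells, and most begin with a C and a run of pyrimidines, the 5′ terminal oligopyrimidine tract, through which growth signals act on their translation by way of mTORC1 and LARP1. Unassembled RPL5 and RPL11 bind MDM2 and so link ribosome assembly to p53. Several members have a second copy elsewhere in the genome, such as RPL39L, RPL10L, RPL3L and RPS27L, whose expression differs from that of the parent gene.

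The median intensity of an array lay between 38.4 and 39.4. A mean log2 intensity of at least 5 over the 4 arrays was required, which 54 members passed. The other 2, RPL3L and RPL36A, had intensities from 18.4 to 26.5 on every array. The ZIC5 probe set was at 14.1 with ZIC5 siRNA and 16.8 with control siRNA in A375, and at 15.5 with ZIC5 siRNA and 21.4 with control siRNA in SK-MEL-28, all under the level minimum, so the arrays give no check of the knockdown. The melanocytic markers MLANA, PMEL, TYR, MITF, SOX10 and S100B lay between 1373 and 18212 in SK-MEL-28, while in A375 MLANA, PMEL and TYR lay between 13.9 and 35.9, MITF and S100B between 235 and 413 and SOX10 between 895 and 1660. Markers of leukocytes and endothelium were at or under 88.3 on all arrays. Of the epithelial markers KRT18 had 4213 with ZIC5 siRNA and 4176 with control siRNA in A375. In SK-MEL-28 KRT18 had 433 with ZIC5 siRNA and 420 with control siRNA. KRT8 had 96.5 with ZIC5 siRNA and 127 with control siRNA in A375. In SK-MEL-28 KRT8 had 51.1 with ZIC5 siRNA and 77.8 with control siRNA. EPCAM was at or under 13.8 on all arrays. Of the fibroblast markers LUM had 14.9 with ZIC5 siRNA and 162 with control siRNA in A375. In SK-MEL-28 LUM had 498 with ZIC5 siRNA and 875 with control siRNA. PDGFRA was at or under 18.9, and DCN between 46.3 and 54.5, on all arrays. The part of these markers in the results was not tested. Each group is 1 array, and 1 ZIC5 siRNA condition was used per line, so an effect of ZIC5 and another effect of that siRNA cannot be told apart. RMA gives the arrays nearly the same overall distribution, so a change in ribosomal protein messages per cell that moves with total RNA cannot be seen, and in bulk RNA fewer cells and less RNA per cell cannot be told apart.

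The start of the transcript carries the feature the family shares, so the 30 bases around the RefSeq start (GRCh38.p14) are shown for members named below, with the longest pyrimidine run near the start in capitals and the start itself at base 16. RPL18, RPS15 and RPS10 had, with RPL39L, the lowest siRNA differences, RPL36 the highest mean siRNA difference, RPS3 and RPS25 the highest line differences, and RPS6 is the protein that S6 kinases phosphorylate. RPS27L is shown as a paralog.
RPL18: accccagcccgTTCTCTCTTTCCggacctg
RPS10: ccgcgcatgCTCCTTCCTTTCCagccccgg
RPS15: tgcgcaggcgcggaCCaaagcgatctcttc
RPL36: ccgcgcggcgccagCCCTTCCgccacggcc
RPS3: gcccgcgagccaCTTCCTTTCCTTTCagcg
RPS25: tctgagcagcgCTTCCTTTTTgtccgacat
RPS6: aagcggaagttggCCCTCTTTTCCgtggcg
RPS27L: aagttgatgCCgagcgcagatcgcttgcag
The RPL18 window is chr19:48619164-48619193 on the minus strand, that of RPS10 chr6:34426055-34426084 (minus), of RPS15 chr19:1438381-1438410 (plus), of RPL36 chr19:5690280-5690309 (plus), of RPS3 chr11:75399503-75399532 (plus), of RPS25 chr11:119018329-119018358 (minus), of RPS6 chr9:19380222-19380251 (minus) and of RPS27L chr15:63157463-63157492 (minus). A start was counted as a terminal tract where the annotated first base was C and at least 4 more C or T followed without a break, on the sense strand only. Of the 54 members at the level minimum 47 had a promoter entry, and 32 of these (68.1%) had such a tract, against 5.16% of 11046 promoters of genes at the level minimum. RPL18, RPS10, RPL36, RPS3, RPS25 and RPS6 had it, and RPS15 and RPS27L did not at the annotated start. The median siRNA difference of the 32 with the tract was 0.06 (A375) and 0.05 (SK-MEL-28). For the 15 without it the medians were 0.07 and 0.05, and no test was made.

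Most ribosomal protein transcripts had nearly the same intensity with ZIC5 siRNA as with control siRNA in both lines. The siRNA difference is the log2 intensity under ZIC5 siRNA less the control siRNA value of the same line. Its median over the 54 members was 0.06 for A375 and 0.06 for SK-MEL-28, beside -0.01 and 0.00 over all 13794 genes. In A375, 45 of 54 members (83.3%) lay within 0.25 of 0, against 42.1% of all genes, and in SK-MEL-28 51 of 54 (94.4%) did, against 60.4%. Among genes with a mean log2 of at least 12, 45 of 50 members and 134 of 232 other genes were that close to 0 for A375. For SK-MEL-28, 47 of 50 members and 187 of 232 other genes were. The part of brightness in this share was not tested. Members were above 0 in 38 of 54 cases in each line (70.4%), against 48.5% of all genes for A375 and 50.2% for SK-MEL-28. Both lines were above 0 for 33 members (61.1%), against 31.5%, and below 0 for 11 (20.4%), against 32.5%. For a single member, the SD of the difference between its probe sets had a median of 0.14 (A375) and 0.09 (SK-MEL-28) over 29 members with several probe sets at the level minimum. Over the 14 members with several probe sets at a mean log2 of at least 12 it was 0.02 for each line. When each gene was read from a probe set whose name does not end in _x_at or _s_at, where it had one, 48 members were measured, and 27 of the 48 were above 0 for A375 and 34 for SK-MEL-28. Those endings mark probes that may match other transcripts, and member probe sets without them are also dimmer. At the level minimum the median of their mean log2 was 7.57, against 13.58 for _s_at and 13.38 for _x_at. The part of brightness in this change was not tested, and the share of all genes above 0 with that choice was not computed.

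**Figure D1:**
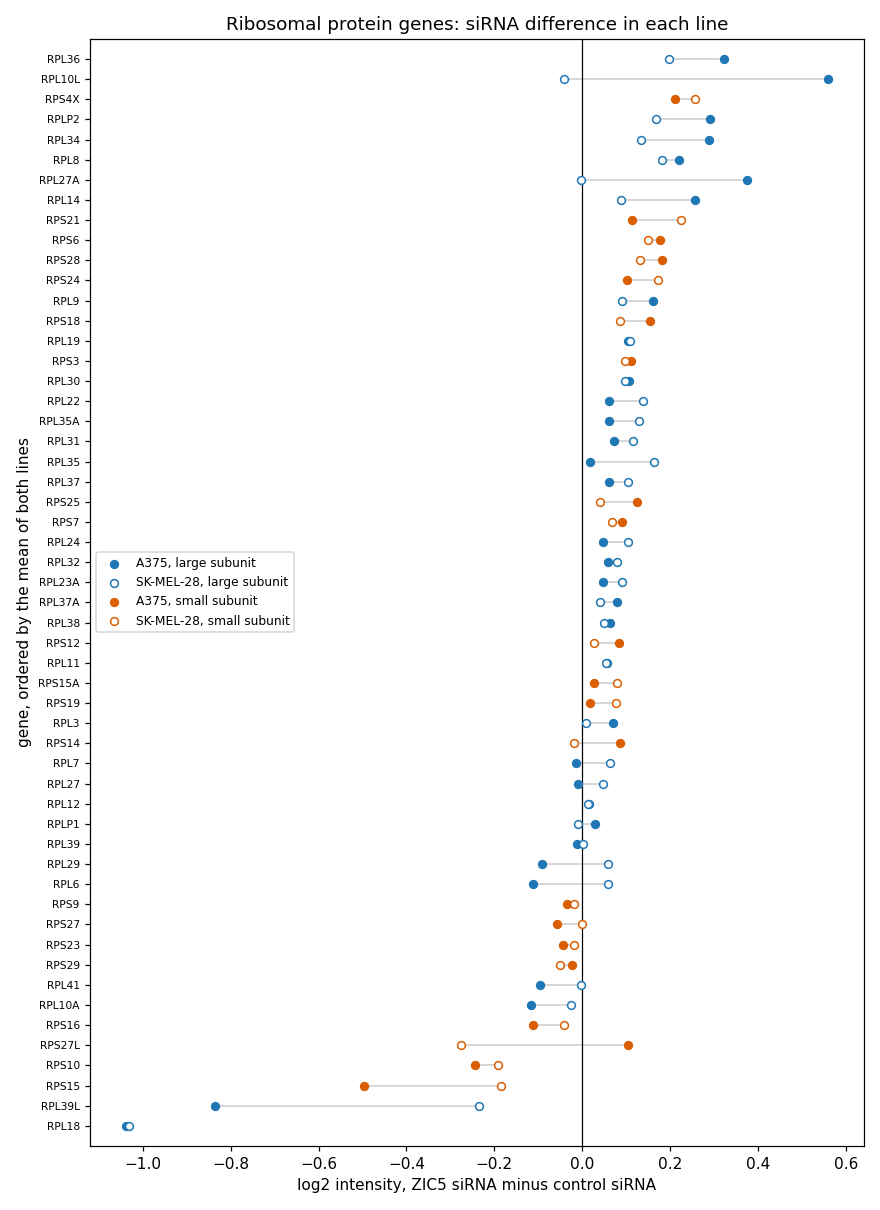
siRNA difference in log2 intensity, ZIC5 minus control (horizontal axis), for each of the 54 members at the level minimum, ordered by the mean of both lines, with filled points for A375, open points for SK-MEL-28, blue for the large subunit and orange for the small. Most points lie between -0.25 and 0.25, and RPL18 stands alone near -1 in both lines.

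RPL18, a protein of the large subunit, was the exception. Its intensity was 5420 with ZIC5 siRNA and 11143 with control siRNA in A375, and 4261 with ZIC5 siRNA and 8715 with control siRNA in SK-MEL-28. Both ZIC5 siRNA values lie below both control values, 2.06-fold lower in A375 and 2.05-fold lower in SK-MEL-28. The log2 differences of -1.04 and -1.03 made RPL18 the only member at least 1 lower, where 5.05% of all genes were in A375, 2.12% in SK-MEL-28 and 1.15% in both lines. No member was at least 1 higher, where 3.89% of all genes were in A375 and 0.776% were in the other line. Among the 282 genes with a mean log2 of at least 12, RPL18 was the only gene at least 1 lower in both lines, the lowest of them in A375 and the second lowest in SK-MEL-28. The limma fit over both lines gave a mean difference of -1.04 (SE 0.09), lower in both lines, with an unadjusted p of 0.000352 and an adjusted p of 0.268 over all genes, between 0.109 and 0.373 under the alternatives. The difference therefore did not pass the threshold, which no gene among the 13794 did.

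The other RPL18 probe sets were far dimmer. The second, at log2 6.71 with ZIC5 siRNA and 7.47 with control siRNA in A375 and 6.25 with ZIC5 siRNA and 7.13 with control siRNA in SK-MEL-28, had differences of -0.76 and -0.87. The third differed by -0.22 for A375 and 0.09 for SK-MEL-28 at log2 levels from 6.14 to 6.36. So both brighter probe sets were lower in both lines, though the name of the second ends in _x_at, and the dimmest had no common sign. Measured genes flanking RPL18 on chromosome 19 were taken in order of start in GRCh38.p14, 20 in all, equally many on each side. Their median difference was -0.01 for A375 and -0.00 for SK-MEL-28. At least 1 lower were 1 of the 20 for A375 and 0 for SK-MEL-28.

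**Figure D2:**
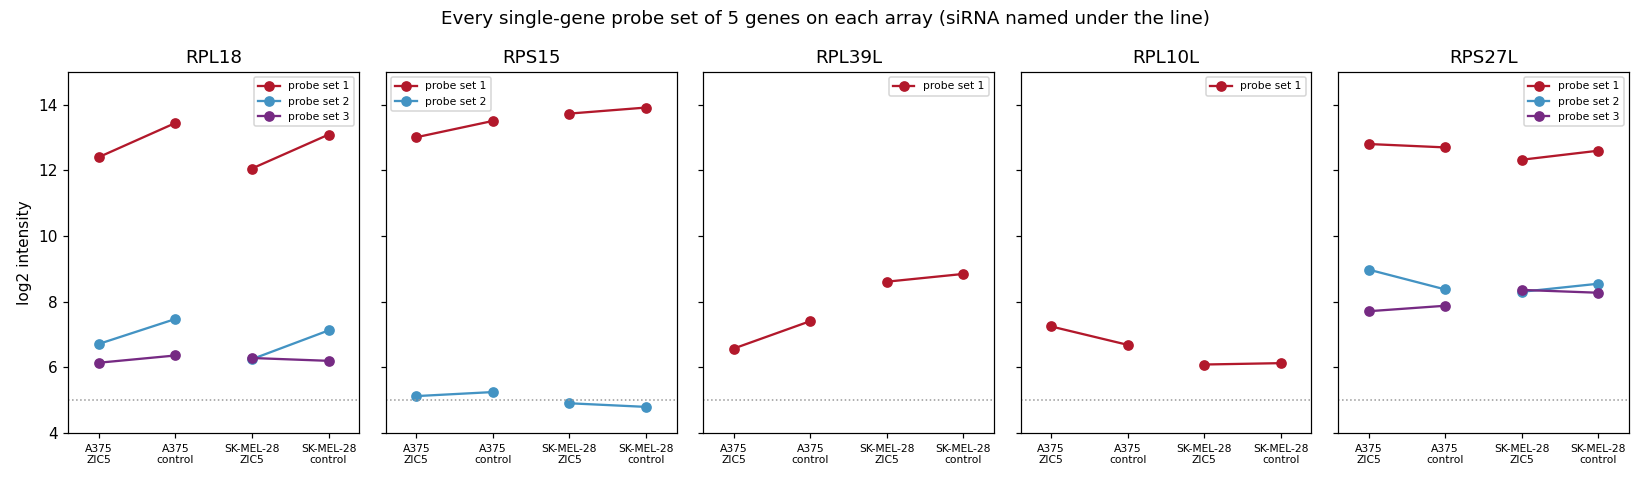
Log2 intensity (vertical axis) of every single-gene probe set of RPL18, RPS15, RPL39L, RPL10L and RPS27L on the 4 arrays, with ZIC5 siRNA left of control siRNA in each line. Probe sets are numbered from the brightest, lines join the arrays of a line, and the dotted line is the level minimum of 5. Probe sets 1 and 2 of RPL18 climb from left to right in both lines, while those of RPS27L do not share a direction.

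Among the other low members, RPS15, a small subunit protein needed for export of the subunit from the nucleus, had intensities of 8241 with ZIC5 siRNA and 11629 with control siRNA in A375, and 13581 with ZIC5 siRNA and 15426 with control siRNA in SK-MEL-28. The differences of -0.50 and -0.18 had the same sign, but the second RPS15 probe set, near the level minimum, differed by -0.12 and 0.11. RPS10, a small subunit protein at the site where collided ribosomes are marked with ubiquitin, had 11812 with ZIC5 siRNA and 13985 with control siRNA in A375, and 11425 with ZIC5 siRNA and 13047 with control siRNA in SK-MEL-28. All 3 bright RPS10 probe sets agreed, with differences from -0.25 to -0.23 in A375 and from -0.19 to -0.18 in SK-MEL-28. The fourth, at a mean log2 of 6.35, differed by 0.40 and 0.08. The names of all RPS10 probe sets end in _x_at, so they may match other transcripts. Next in order of the mean over both lines were RPS27L (-0.09), RPS16 (-0.08), RPL10A (-0.07), RPL41 (-0.05), RPS29 (-0.04) and RPS23 (-0.03). For RPS16, RPL10A, RPL41, RPS29 and RPS23 both lines were below 0, with no difference beyond -0.12 in either.

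At the other end stood RPL36, a large subunit protein, with 9072 with ZIC5 siRNA and 7253 with control siRNA in A375, and 5456 with ZIC5 siRNA and 4755 with control siRNA in SK-MEL-28. Its differences of 0.32 and 0.20 were both above 0. RPS4X, the X-linked small subunit gene, had 16439 with ZIC5 siRNA and 14196 with control siRNA in A375, and 13942 with ZIC5 siRNA and 11664 with control siRNA in SK-MEL-28. Its 2 probe sets, whose names both end in _x_at, gave differences of 0.21 and 0.24 for A375, with 0.26 and 0.24 for SK-MEL-28. RPL34 (0.29 and 0.13), RPL8 (0.22 and 0.18), RPL14 (0.26 and 0.09) and RPS21 (0.11 and 0.22) were also above 0 in A375 and SK-MEL-28, as was RPLP2, an acidic protein of the stalk that recruits elongation factors, at 0.29 and 0.17. RPLP2 was read at intensities from 33.8 to 41.4, close to the level minimum.

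Over both lines together, the limma fit called 0 of 54 members and 0.0% of all genes at an adjusted p under 0.05. At an unadjusted p under 0.05, RPS4X was higher (0.0291), where 5.91% of all genes were, and RPL18, RPS15 (0.0359) and RPS10 (0.0410) were lower, where 7.31% were. Their limma adjusted p were 0.355 for RPS4X, 0.361 for RPS15 and 0.370 for RPS10. For RPS4X the mean difference was 0.23 (SE 0.07), higher in both lines. For RPS15 it was -0.34 (SE 0.11) and for RPS10 -0.22 (SE 0.07), lower in both lines.

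In A375 the paralogs RPL39L and RPL10L had the widest differences after RPL18. RPL39L, the second copy of RPL39, had 95.2 with ZIC5 siRNA and 170 with control siRNA in A375, and 391 with ZIC5 siRNA and 460 with control siRNA in SK-MEL-28. It differed by -0.84 in A375 and by -0.24 in SK-MEL-28, while its parent RPL39, which lines the peptide exit tunnel, differed by -0.01 and 0.00. RPL10L, a retrotransposed copy of RPL10 best known from testis, had 152 with ZIC5 siRNA and 103 with control siRNA in A375, a difference of 0.56, and 68.0 with ZIC5 siRNA and 70.0 with control siRNA in SK-MEL-28, a difference of -0.04. It was the only member at least 0.5 higher in A375, where 15.1% of all genes were, and in SK-MEL-28 no member was, against 6.18%. RPL18 and RPL39L were at least 0.5 lower in A375, against 15.8% of all genes, and RPL18 alone in SK-MEL-28, against 8.37%. RPS15 fell just short in A375, at -0.497.

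RPS27L, a p53-inducible copy of RPS27, had 7146 with ZIC5 siRNA and 6652 with control siRNA in A375, and 5125 with ZIC5 siRNA and 6202 with control siRNA in SK-MEL-28. The lines had opposite signs, 0.10 and -0.28, and its 3 probe sets gave 0.10, 0.60 and -0.17 for A375, with -0.28, -0.25 and 0.09 for SK-MEL-28. RPS27 differed by -0.06 and -0.00. RPL3L, a muscle-specific copy of RPL3, had intensities of 21.2 with ZIC5 siRNA and 18.4 with control siRNA in A375, and 19.3 with ZIC5 siRNA and 23.0 with control siRNA in SK-MEL-28, under the level minimum on all arrays. RPL3 itself differed by 0.07 and 0.01.

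The subunits had close medians. In A375 the median difference was 0.06 over 33 large subunit genes and 0.09 over 21 small subunit genes, and in SK-MEL-28 it was 0.06 and 0.04. Above 0 were 24 of 33 large subunit members for A375 and 26 for SK-MEL-28, with 14 and 12 of 21 small subunit members. Large subunit differences ranged from -1.04 to 0.56 in A375 and from -1.03 to 0.20 in SK-MEL-28, and small subunit differences from -0.50 to 0.21 and from -0.28 to 0.26. The large subunit median less the small subunit median was -0.03 for A375 and 0.02 for SK-MEL-28. Read from probe sets without _x_at or _s_at it was 0.04 and -0.03, so its sign turned in both lines, and no order of the subunits is given. No test was made, since members are not replicates.

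The brightest probe set of most members, used here for the gene, lies at the top of the intensity scale, where a scanner or the probes can saturate. Of all 117 member probe sets, 68 had a mean log2 of at least 12, 37 lay from 5 to 12 and 12 under 5. Of the 54 members, 50 had a mean log2 of at least 12, and each of these lay above 98.97% of all probe sets on every array. The highest intensity of any probe set was 20569 with ZIC5 siRNA and 21265 with control siRNA for A375, and 22249 with ZIC5 siRNA and 22531 with control siRNA for SK-MEL-28. Members made up 18 of the 24 genes at or above log2 14 with ZIC5 siRNA and 13 of 20 with control siRNA for A375. For SK-MEL-28 they were 5 of 16 with ZIC5 siRNA and 4 of 16 with control siRNA. RPL41, the shortest ribosomal protein, was the highest member in A375, with 19886 with ZIC5 siRNA and 21265 with control siRNA. RPL37A was the highest in SK-MEL-28, with 19941 with ZIC5 siRNA and 19377 with control siRNA. Intensities of different probe sets do not rank their transcripts, and the deposited values carry no saturation flag.

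The spread of the siRNA differences was compared by level. Between log2 13 and 14 the SD of the siRNA differences was 0.14 over 36 members and 0.27 over 44 other genes for A375, with 0.09 and 0.20 for SK-MEL-28. Between log2 14 and 15 it was 0.09 over 8 members and 0.06 over 6 other genes for A375, with 0.04 and 0.06 for SK-MEL-28, from few genes on either side. Between log2 12 and 13 it was 0.51 over 6 members, RPL18 among them, and 0.38 over 182 other genes for A375, with 0.46 and 0.26 for SK-MEL-28. Without RPL18, a setting chosen after seeing the data, the other 5 members there had an SD of 0.15 for A375, close to that between 13 and 14, and of 0.19 for SK-MEL-28. Across the 50 high members, which share arrays and are not independent, the size of the difference had a Spearman rho with level of -0.35 for A375 and -0.37 for SK-MEL-28, and of -0.32 and -0.34 without RPL18. Whether saturation hides differences above log2 14 was not tested. RPL18, at a mean log2 of 12.75, shows a 2.05-fold gap at intensities between 4261 and 11143.

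**Figure D3:**
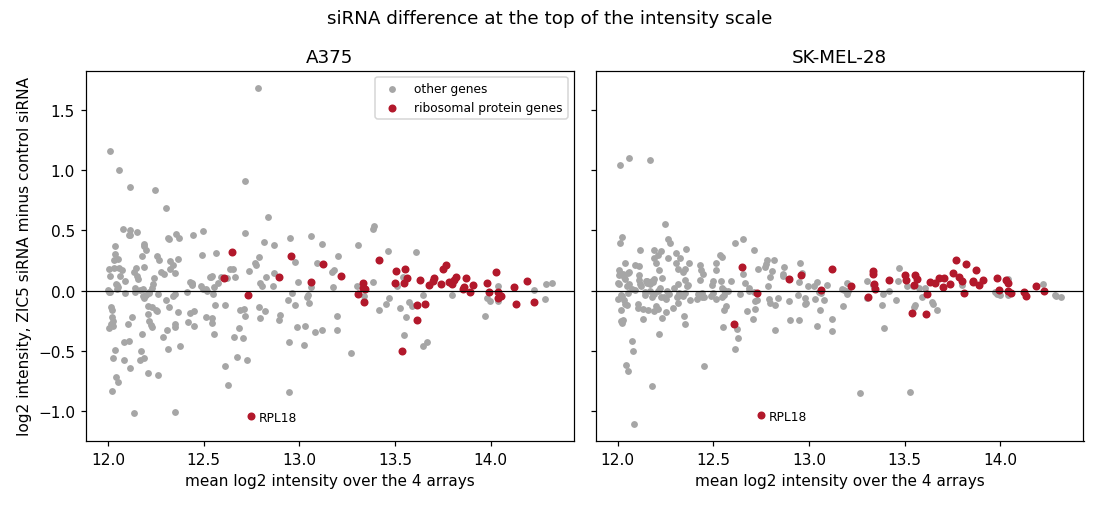
siRNA difference in log2 intensity, ZIC5 minus control (vertical axis), against the mean log2 intensity over the 4 arrays (horizontal axis) for the 282 genes with a mean of at least 12, in A375 (left) and SK-MEL-28 (right). Red points are the 50 ribosomal protein genes and grey points the 232 other genes. The grey points spread less to the right, and RPL18 lies near -1 in both panels.

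The lines differed more than the siRNAs. In A375 both arrays lay above both SK-MEL-28 arrays for 42 of 54 members (77.8%), against 32.9% of all genes, and below for 6 (11.1%), against 30.7%. The median of the A375 minus SK-MEL-28 difference was 0.26 over the members and 0.01 over all genes, and over the 232 other genes with a mean log2 of at least 12 it was -0.02. It was 0.24 with ZIC5 siRNA and 0.28 with control siRNA, and 47 of 54 members lay above 0, against 51.0% of all genes. The large subunit had a median of 0.29 and the small subunit of 0.25, and 20 of 21 small subunit and 27 of 33 large subunit members were higher in A375. By level the medians were 0.54 over the 6 members between log2 12 and 13, 0.28 over the 36 between 13 and 14 and 0.15 over the 8 between 14 and 15, with few members in the first and last.

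The arrays of a line, which differ in siRNA, were the only replication for the line difference. The same limma fit tested it, with siRNA as a term. It called 20 of 54 members, against 27.7% of all genes. Called higher in A375 were 18 members (33.3%), against 14.2% of all genes, and called lower 2 (3.7%), against 13.4%. At a mean log2 of at least 12, 18 of 50 members and 36 of 232 other genes were called higher. Called lower there were 1 of 50 members and 47 of 232 other genes. The calls depend on how the spread is pooled. Without the trend of the variance with level, 2 members, RPS3 and RPS25, were called higher and 1, RPL39L, lower. In that fit 13.8% of all genes were called higher, a larger share than that of the members. The share of all genes called lower in it was not computed.

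RPS3, at the entry of the messenger RNA channel, and RPS25, used by some internal ribosome entry sites, led the members higher in A375. RPS3 had 11486 in A375 with ZIC5 siRNA and 10636 with control siRNA, against 5435 in SK-MEL-28 with ZIC5 siRNA and 5080 with control siRNA. RPS25 had 14228 in A375 with ZIC5 siRNA and 13056 with control siRNA, against 6764 in SK-MEL-28 with ZIC5 siRNA and 6580 with control siRNA. In both genes the A375 arrays were clear of the SK-MEL-28 arrays, 2.10-fold higher for RPS3 (difference 1.07, SE 0.08, limma adjusted p = 0.00675) and 2.04-fold for RPS25 (1.03, SE 0.08, limma adjusted p = 0.00675). The adjusted p under the alternatives lay between 0.00173 and 0.0208 for RPS3 and between 0.00155 and 0.0229 for RPS25. RPL10L (0.86), RPL36 (0.67), RPL12 (0.63), RPL34 (0.62), RPS6 (0.54) and RPL8 (0.53) followed. All of these but RPL10L passed the threshold in the fit with trend, and none of them in the fit without it.

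RPL39L was the member furthest lower in A375, with 95.2 with ZIC5 siRNA and 170 with control siRNA in A375, against 391 with ZIC5 siRNA and 460 with control siRNA in SK-MEL-28. It was 3.33-fold lower (difference -1.74, SE 0.23, limma adjusted p = 0.0169, from 0.00636 to 0.0249 under the alternatives). RPS15 differed by -0.56 (SE 0.11, limma adjusted p = 0.0329), but its other probe set differed by 0.34, with limma adjusted p = 0.173 from that probe set and 0.684 from the median of both. RPL22 (-0.20), RPL31 (-0.19), RPL35A (-0.17) and RPL37A (-0.15) were lower on all A375 arrays without passing, and RPL11, the MDM2-binding protein, differed by -0.01. RPLP2 had a difference of 0.03.

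**Figure D4:**
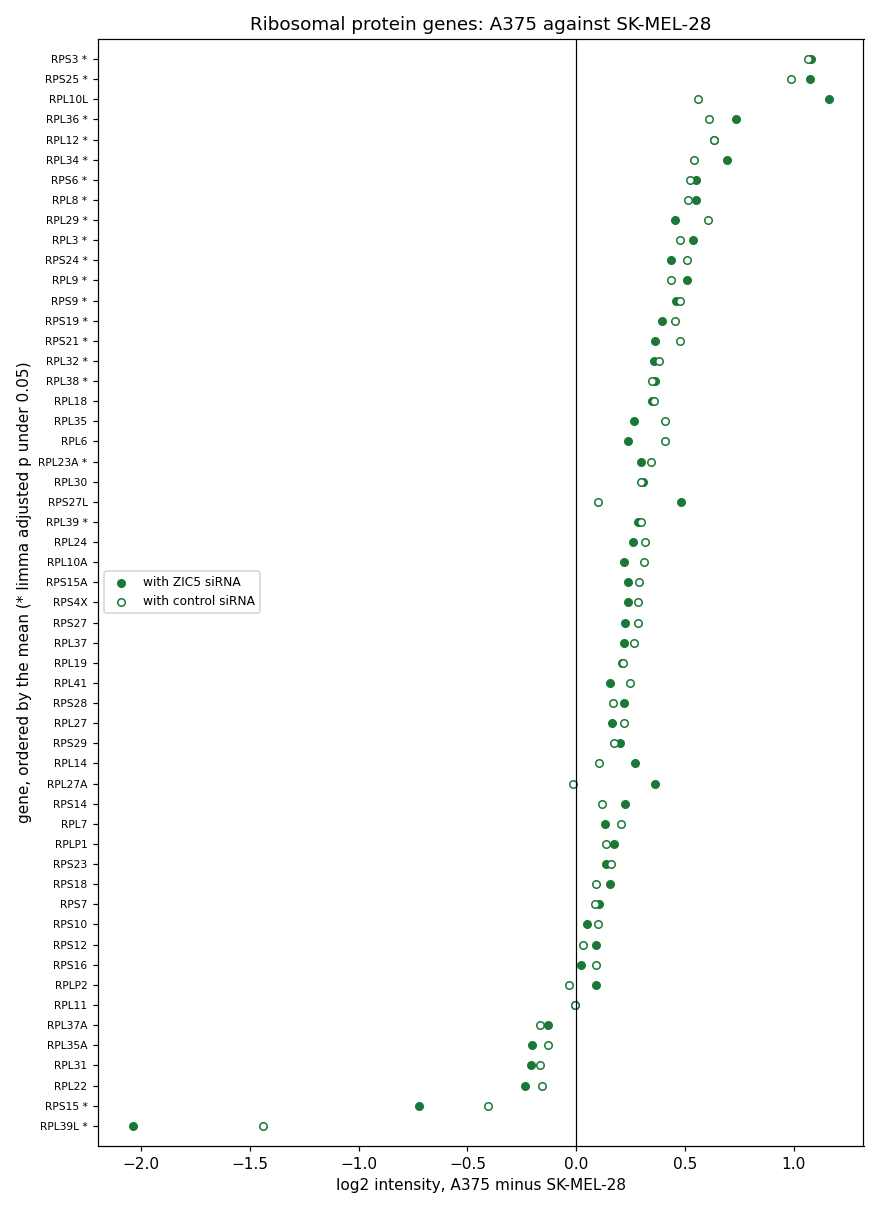
Log2 intensity in A375 minus that in SK-MEL-28 (horizontal axis) for each of the 54 members at the level minimum, with filled points for ZIC5 siRNA and open points for control siRNA, ordered by the mean. Stars mark a limma adjusted p under 0.05 in the fit with trend. Most members lie right of 0, RPS3 and RPS25 near 1, and RPL39L is furthest left.

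The RPS3 and RPS25 genes share chromosome 11 with FAU, whose product is a small subunit protein fused to a ubiquitin-like protein and which lies outside the symbol rule. FAU was 2.42-fold higher in A375 (difference 1.27). RPL27A and RPLP2, members on the same chromosome, had line differences of 0.17 and 0.03. Both were read from dim probe sets, at a mean log2 of 6.69 and 5.21. The median line difference over all 828 measured genes of the chromosome was 0.21. The 20 measured genes flanking RPS25, taken as for RPL18, had a median line difference of 0.78, with 18 of 20 higher in A375. Those flanking RPS3 had 0.23, with 12 of 20 higher. The 20 genes flanking RPL39L on chromosome 3 had a median of -1.32, with 3 of 20 higher in A375. Other members differed from their neighbours: RPL36 had a line difference of 0.67 and its neighbours a median of -0.01, RPL34 0.62 and 0.12, RPL12 0.63 and 0.12, RPL18 0.35 and -0.23 and RPS15 -0.56 and -0.14. These neighbourhoods were chosen after the line differences were seen, and copy number was not tested.

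Genes that build or share the ribosome were read from lists, and the limma fit called 0 of them for the siRNA effect over all genes. Of 7 ribosome-linked genes outside the rule 5 were measured, with medians of -0.04 in A375 and 0.09 in SK-MEL-28. RPL22L1, the paralog of RPL22, was 4.75-fold lower in A375 and 1.40-fold lower in SK-MEL-28 (limma adjusted p = 0.374), while RPL22 itself differed by 0.06 and 0.14. Other bright RPL22 probe sets differed by 0.10 to 0.14. Those at a mean log2 of 10.7 differed by 0.62 and 0.45 and by -0.28 and 0.13. FAU differed by 0.08 and 0.09, RPL26L1 by 0.23 and 0.15 and RPL7L1 by -0.37 and 0.08. All 9 listed chaperones of single ribosomal proteins were measured, with medians of 0.11 and 0.23, among them RPS19BP1 (0.40 and 0.38), the RPL5 carrier HEATR3 (0.27 and 0.47), PDCD2 (0.15 and 0.50) and PDCD2L (0.12 and 0.35). Of 35 ribosome assembly and ribosomal RNA synthesis genes 28 were measured, with medians of 0.08 and 0.12. Nucleolin, NCL, was 1.86-fold and 1.31-fold lower (limma adjusted p = 0.322), RPF2, which brings RPL5 and RPL11 to the large subunit, differed by 0.68 and 0.34, NOP14 by 0.35 and 0.39 and NOP2 by 0.42 and 0.14.

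Of 14 translation factors and other genes with a terminal tract 12 were measured, with medians of 0.04 for A375 and 0.11 for SK-MEL-28. The initiation factor 3 subunit EIF3H differed by 0.52 and 0.24, EIF3F by -0.25 and -0.39 and EIF3E by 0.18 and 0.43, and the elongation factor EEF2 by 0.38 and 0.19. Of 7 genes that sense or control ribosomal proteins 6 were measured, with medians of 0.40 and 0.19. MDM2 differed by 0.67 and 0.45 (limma adjusted p = 0.350), EIF4EBP1, an mTORC1 substrate, by 0.42 and 0.45, RPS6KB1 by 0.49 and 0.19 and MYC by 0.37 and -0.04. Mitochondrial ribosomal protein genes, 75 measured, had medians of -0.11 for A375 and 0.07 for SK-MEL-28. Of them 53.3% and 60.0% lay within 0.25 of 0. They included MRPL54 (-0.95 and -0.30), MRPL33 (-0.79 and -0.43), MRPL1 (0.45 and 0.80) and MRPL47 (0.54 and 0.44). Of the 75, 0 had a mean log2 of at least 12, against 50 of 54 cytosolic members.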

How the data were processed

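Per the labels' protocols, biotinylated cRNA was made from 100 ng of total RNA. The authors deposited 1 RMA intensity per probe set and array, for which the submitters' processing notes list Affymetrix Expression Console. Its version was not given in the sources used here. Log2 of the deposited linear intensities was taken here (Python 3.11.15, pandas 2.3.3). Genes were assigned from the platform's annotation table, and all 56 members matched the RefSeq table (GRCh38.p14) by entrez ID. A gene was represented by its probe set with the highest mean, and 13794 of 19775 genes had a mean log2 of at least 5. With 1 array per group no test was made within a line. An additive limma fit (version 3.58.1, R 4.3.3, eBayes with trend) on siRNA and line was adjusted by Benjamini-Hochberg over all 13794 genes at 0.05. It has 1 residual degree of freedom per gene. A run of the fit on simulated data used changes larger than that of any member, and the same spread for all genes. That run therefore does not show how the fit treats differences of the size seen here. The labels do not say whether arrays came from separate cultures. The residual is the gap between the siRNA differences of the lines, moderated toward the spread of other genes. So p-values measure neither the spread between cultures nor that between repeat arrays of a line. Genes were named by size of difference, by list and as paralogs. The members and lists were chosen with earlier results of these data known. Alternatives changed the probe set, filter, floor, normalization, moderation and members.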

Additional observations from a re-analysis of the deposited data

Results flagged for a closer look

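With 1 pair of arrays per line, 10 members were picked out because the siRNA difference had opposite signs in A375 and SK-MEL-28, and the difference between lines was not tested. The A375 difference minus the SK-MEL-28 difference was 0.60 for RPL10L (0.56 and -0.04) and 0.38 for RPS27L (0.10 and -0.28). RPL27A, read at intensities from 96.6 to 125, also had a gap of 0.38 (0.38 and -0.00). The gap was -0.17 for RPL6 (-0.11 and 0.06), -0.15 for RPL29 (-0.09 and 0.06) and 0.11 for RPS14 (0.09 and -0.02). It was -0.08 for RPL7, -0.06 for RPL27, 0.04 for RPLP1 and -0.01 for RPL39.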

How the results depend on the processing

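The siRNA fit pairs the arrays by line, and the labels give no replicate numbers for another pairing. No array could be left out within a line. Over 61 results and 11 alternative settings, 410 values were computed. The 1 called value that changed sign was the RPS15 line difference, 0.34 from the probe set without an _x_at or _s_at ending. Untested values also changed sign with that choice: RPS15 to 0.11 in SK-MEL-28, RPS27L to -0.17 for A375 and 0.09 for SK-MEL-28. The large less small subunit median turned to 0.04 for A375 and -0.03 for SK-MEL-28, to 0.02 and -0.01 with the median of all probe sets, and to -0.10 for the line difference with that median, against 0.03. Members at least 0.5 lower in A375, 2 in the report, numbered 4 with the median of all probe sets and 4 without _x_at or _s_at probe sets, and 1 without paralogs ending in L and 1 among members at 12 or more, a setting chosen after seeing the data. Members at least 0.5 higher in A375, 1 in the report, numbered 2 and 2 under those probe set choices, and 0 with a mean log2 of at least 7, without paralogs and at 12 or more. In SK-MEL-28, 2 members were at least 0.5 lower without _x_at or _s_at probe sets, against 1. Members called higher in A375 than in SK-MEL-28, 18 in the report, numbered 30 with a mean log2 of at least 7, 28 after centring on other genes at 10 or more and 2 without the trend, and the share of all genes called higher was 19.3%, 16.4% and 13.8% in those settings. Members called lower numbered 1, not 2, with the median probe set, without _x_at or _s_at probe sets, without trend, without paralogs and at 12 or more. Without RPL18, also chosen after seeing the data, the SD of the siRNA differences of members between log2 12 and 13 was 0.15 for A375 and 0.19 for SK-MEL-28, against 0.51 and 0.46. RPL18 differed by -0.76 for A375 and -0.84 for SK-MEL-28 with the median probe set. The siRNA effect had 0 members and 0 of all genes called in every setting, and members at an unadjusted limma p under 0.05 numbered from 1 to 8. Shares of all genes were not computed in each setting for that p, for the counts at 0.5 or for calls of lower members. Those counts are therefore not set against a background. The cause of these changes was not tested. With 1 array per group, the number of arrays limits the precision.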

Other observations

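The 64 probe sets that name a ribosomal protein gene together with another gene were not used above. Of these, 59 passed the level minimum, with a median difference of 0.04 for A375 and 0.06 for SK-MEL-28. Among the 46 with a mean log2 of at least 12, differences ranged from -0.25 to 0.27 in A375 and from -0.15 to 0.49 in SK-MEL-28, and 43 of 46 were higher in A375 than in SK-MEL-28, with a median line difference of 0.32. Dim probe sets of bright members gave other values: the dimmest RPL31 probe set, at a mean log2 of 6.47, differed by -0.98 and -1.04, where the brightest differed by 0.07 and 0.12, and a second RPS23 probe set, at 6.57, differed by -0.97 and 0.43. Over the 4 arrays, the genes whose log2 intensities were most like those of RPS27L were MYD88, SPTBN5, ADAT2, LOC101928419 and MTRES1, and 45 genes had a Pearson r above 0.99 with it, as 4 points allow.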
